A study of Mus musculus with 9 samples.

Results

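The laminin chains are the subunits of the laminins, the cross-shaped glycoproteins from which basement membranes are built. Each laminin joins an α, a β and a γ chain, and the name of a trimer lists its chains in that order, so that laminin-411 holds α4, β1 and γ1. The genes Lama1, Lama2, Lama3, Lama4, Lama5, Lamb1, Lamb2, Lamb3 and Lamc1 were picked by their symbols. They are 9 of the 55276 genes in the table, and all 9 were among the 17672 genes with enough counts to be tested. Lamc3, which encodes γ3, was read beside them.

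A laminin network forms when the short arms of its chains join outside the cell, and the end of the α chain binds the receptors of the cell above, mainly integrins and dystroglycan. Epithelia, bile ducts among them, rest on laminins with the α5 chain. Stratified and glandular epithelia are also anchored by laminin-332 through integrin α6β4. The α4 chain is known mainly from endothelial and mesenchymal cells, and the α2 chain from muscle and peripheral nerve.

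RNA came from cultured PPTR cells, a mouse line of intrahepatic cholangiocarcinoma, the cancer of the bile ducts within the liver. The line was grown from tumor organoids that carried Prom1CreERT2 and a Rosa-ZsGreen reporter together with Ptenflx/flx and Tp53flx/flx. By the study's description of the cells, all groups share these alleles. In that model Cre is expressed from Prom1, which limits recombination to cells that use this gene. The control cells, Vcam1ctrl, carry the label WT, and Vcam1KO1 and Vcam1KO2 are described by the study as PPTR cells edited with Cas9 and a guide against Vcam1, each as 1 single-cell clone. Each condition has 3 libraries, 9 in all, collected at different passages and grown in the same medium with serum, and whether the control cells also went through a single cell is not given in the sources used here. The libraries of a clone are therefore repeats of that clone, and p values measure the spread between libraries.

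The libraries held between 53415907 and 125223073 counts, and levels are given in CPM, counts divided by library size, with TMM factors applied. A count of 3, the limit of detection used here, stood for between 0.0239 and 0.0554 CPM. Vcam1 was read first, as the targeted gene. It stood at 248, 221 and 329 CPM in the Vcam1ctrl libraries, at 98.8, 92.4 and 128 CPM in the Vcam1KO1 libraries and at 119, 99.4 and 83.0 CPM in the Vcam1KO2 libraries. The 6 clone libraries were all below the 3 control libraries, with a log2 fold change of -1.36 (SE 0.17, adjusted p = 2.1e-04, edgeR quasi-likelihood test, Benjamini-Hochberg). The paper reports loss of Vcam1 in both clones by quantitative RT-PCR and by flow cytometry. That RT-PCR also read RNA, with a forward primer that shares bases with the guide sequence, whereas the counts here cover the whole transcript. What the remaining Vcam1 counts in the clones rest on was not tested. The counts here are of RNA and do not measure the protein.

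The clones also differed from the control cells in the markers of the cell type that the line is named for. The summed level of 7 biliary epithelial markers lay between 11423 and 12130 CPM in Vcam1ctrl libraries, between 141 and 380 CPM in Vcam1KO1 libraries and between 108 and 225 CPM in Vcam1KO2 libraries. Of these markers 6 of 7 fell in Vcam1KO cells, and Sox9, a transcription factor of bile duct cells, was the exception (log2 fold change 0.67, adjusted p = 0.155 in edgeR). Beside this and the marker counts that follow, 21.2% of all genes tested were called lower and 21.7% higher in Vcam1KO cells. Krt18, an epithelial keratin, had a mean of 3408 CPM in Vcam1ctrl cells and lay between 0 and 0.105 CPM in the 6 clone libraries, and Krt19, the keratin by which bile duct cells are usually recognised, went from 2292 to 0.104 CPM. The summed level of 8 fibroblast and stellate cell markers lay between 413 and 801 CPM in control libraries, between 9269 and 10669 CPM in Vcam1KO1 libraries and between 5851 and 7206 CPM in Vcam1KO2 libraries. Of the 6 that could be tested 4 rose, with Col1a1, the main fibrillar collagen chain, at a log2 fold change of 6.06 and Pdgfrb, a growth factor receptor of pericytes and stellate cells, at 4.15. Dcn, the gene of the proteoglycan decorin, went the other way in Vcam1KO1 cells, where it fell (log2 fold change -4.11, adjusted p = 0.000222 in edgeR), while its value in Vcam1KO2 cells was 0.30 (adjusted p = 0.645). Of 4 mesothelial markers tested 3 fell, Krt19 and Msln most. The transcription factor gene Wt1, the fourth, rose in Vcam1KO2 cells from a mean of 0.223 to 9.42 CPM (log2 fold change 5.42, adjusted p = 1.45e-05 in edgeR) and was at 0.228 CPM in Vcam1KO1 cells. In the combined comparison all 4 hepatocyte markers tested fell, Ttr and Serpina1a most. Summed endothelial markers stayed at or below 2.01 CPM and summed haematopoietic markers at or below 8.94 CPM in every library. Every comparison of a clone with control below is one between cells that also differ in these markers, and their part in it was not tested. Whether the clones derive from the same cells as the control could not be settled from the counts, so that each fold change against control is a difference between these cultures. In RNA from whole cultures, fewer cells of a type and less RNA per cell cannot be told apart.

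The balance of laminin chains in the clones was not that of the control cells. Lama2, Lama4, Lamb1 and Lamc1 were higher in Vcam1KO than in Vcam1ctrl cells, and Lama5 and Lamb3 were lower, so that 6 of 9 members passed an adjusted p of 0.05, where 43.0% of all genes tested did. The largest shifts among them were the loss of Lamb3 and the gain of Lama2 and Lama4. Of all genes 21.7% were called higher and 21.2% lower, so that 4 of 9 higher and 2 of 9 lower stand beside a table in which such calls were common. The median log2 fold change was -0.13 over the 9 members and 0.07 over all genes. Lama1, Lama3 and Lamb2 did not pass in the combined comparison. In the plot of levels by library, the 4 genes that rose and the 2 that fell had no library of a clone inside the range of the control, which was so for 21.2% of all genes upwards and 23.0% downwards.

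**Figure D1:**
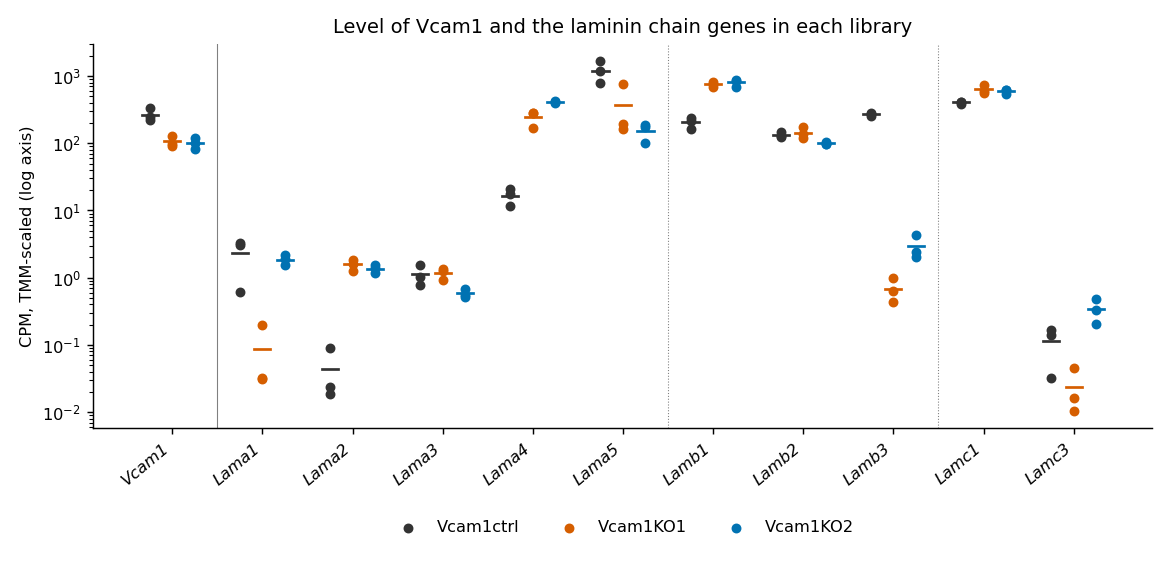
Level of Vcam1 and of 10 laminin chain genes in each of the 9 libraries, in CPM on a log axis. Points are libraries, short lines are means of 3 libraries, and dotted lines part the α, β and γ chains. Lamb3 lies between 255 and 279 CPM in control libraries and at or below 4.38 CPM in all clone libraries, while Lama4 lies at or below 20.9 CPM in control and at or above 168 CPM in the clones.

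Among the α chains, Lama5 was the main one in the control cells. It encodes α5, the chain of the epithelial trimers laminin-511 and laminin-521, and lies at chr2:180176373-180225859 on the minus strand of GRCm38. Its levels were 1200, 776 and 1650 CPM in Vcam1ctrl libraries, 162, 194 and 764 CPM in Vcam1KO1 libraries and 186, 172 and 102 CPM in Vcam1KO2 libraries. All clone libraries were below all control libraries, but replicate 3 of Vcam1KO1 came within a small margin of the lowest control library while the 5 others lay at or below 194 CPM. The log2 fold change was -2.20 in Vcam1KO cells (SE 0.58, adjusted p = 0.0127, edgeR quasi-likelihood test, Benjamini-Hochberg), which is 4.59-fold lower. Without replicate 3 of Vcam1KO1 it was -2.91 with an adjusted p of 7.3e-05 in edgeR. Without replicate 3 of Vcam1ctrl it was -1.92 and the adjusted p in edgeR was 0.0531, which missed the threshold.

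The bases before the start of Lama5 are shown here with those of Lamb3 and Lama2, since these are the chains with the widest loss and gain for which RefSeq (GRCm38.p6) gave a window clear of annotated exons but for 1 base at Lamb3. Each line holds the 250 bases just upstream of a RefSeq start, read 5′ to 3′ on the strand of the gene, and capitals mark CAGGTG or its reverse complement CACCTG, the E-box bound by transcription factors of the Snail and Zeb families. The windows are chr2:180225860-180226109 on the minus strand for Lama5, chr1:193301744-193301993 on the plus strand for Lamb3 and chr10:27616943-27617192 on the minus strand for Lama2. The Lamb3 and Lama2 windows lie inside the gene spans given for these genes in this text, which come from GENCODE and begin further upstream, so that they precede internal starts and not the first base of the span.
Lama5: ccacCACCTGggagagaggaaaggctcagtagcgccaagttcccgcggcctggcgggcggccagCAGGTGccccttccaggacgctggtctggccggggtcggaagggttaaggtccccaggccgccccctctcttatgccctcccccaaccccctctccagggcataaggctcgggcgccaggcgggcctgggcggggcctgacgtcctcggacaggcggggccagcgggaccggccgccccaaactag
Lamb3: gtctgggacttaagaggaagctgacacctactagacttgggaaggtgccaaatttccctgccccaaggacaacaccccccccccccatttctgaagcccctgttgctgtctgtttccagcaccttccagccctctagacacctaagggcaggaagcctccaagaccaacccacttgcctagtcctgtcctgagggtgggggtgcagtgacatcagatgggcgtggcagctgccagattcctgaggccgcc
Lama2: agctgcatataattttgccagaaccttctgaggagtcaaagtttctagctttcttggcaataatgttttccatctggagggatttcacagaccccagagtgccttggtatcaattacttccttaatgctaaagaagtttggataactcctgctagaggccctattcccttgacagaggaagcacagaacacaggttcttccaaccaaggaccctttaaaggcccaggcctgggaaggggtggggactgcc
The letters occurred at -246 and -186 from the RefSeq start in the Lama5 window and nowhere in the other windows shown. Lama3 was left out of this search. For the other members, 6 RefSeq windows were read for 5 of the 9, and 2 of the 6 held the motif. The second was that of another Lamb3 start, at -6. Of 32851 upstream windows of the same length in the genome, 17.2% held it. The letters TGANTCA, the site of the AP-1 factors, were in 0 of the 6 windows and in 6.75% of all windows. Both motifs were searched after the levels were known, and a match in these letters is a description and not a site. In the same libraries Zeb1 (log2 fold change 1.24), Zeb2 (1.16), Snai1 (1.70) and Twist2 (2.90) were higher in Vcam1KO cells. Thus 4 of 6 transcription factors of the epithelial-mesenchymal transition rose by the edgeR test and 1 fell. Of all genes tested 21.7% rose and 21.2% fell. Twist1 fell, from a mean of 3.44 CPM in Vcam1ctrl cells to at most 0.210 CPM in a clone library. Snai2, the remaining one and a Snail family member, had a combined log2 fold change of 0.03 (adjusted p = 0.97) and fell in Vcam1KO2 cells (-1.06, adjusted p = 0.037 in edgeR). Whether any of these factors acts on a laminin gene was not tested.

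Lama4 (chr10:38965515-39110188, plus strand), which encodes the short α4 chain of the vessel and stroma trimers laminin-411 and laminin-421, was the leading α chain per length in 5 of 6 clone libraries. It stood at 20.9, 17.5 and 11.6 CPM in Vcam1ctrl libraries, at 281, 280 and 168 CPM in Vcam1KO1 libraries and at 415, 428 and 393 CPM in Vcam1KO2 libraries. Clones and control were far apart, and the libraries of the clones did not overlap each other either. In Vcam1KO cells Lama4 was 19.6-fold higher than in control (log2 fold change 4.30, SE 0.38, adjusted p = 2.69e-05, edgeR quasi-likelihood test, Benjamini-Hochberg). The log2 fold change was 3.87 in Vcam1KO1 and 4.63 in Vcam1KO2 cells, against the same 3 control libraries.

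Lama2 (chr10:26980036-27619758, minus strand) encodes α2, the chain of muscle basement membranes that binds dystroglycan. It was at the edge of detection in control cells, with 3, 1 and 7 counts or 0.024, 0.018 and 0.089 CPM. In Vcam1KO1 libraries it stood at 1.62, 1.27 and 1.84 CPM and in Vcam1KO2 libraries at 1.18, 1.37 and 1.54 CPM. It was thus detected in all clone libraries, yet stayed at or below 0.191 CPM per kb of transcript. The log2 fold change was 5.02 (SE 0.54, adjusted p = 8.64e-05, edgeR quasi-likelihood test, Benjamini-Hochberg), a value that rests on the 11 control counts and on the prior count of the fit. The ratio of summed counts per library size was 34.3, with a 95% exact interval of 19 to 69 that covers counting error only.

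Lama1 and Lama3 were low throughout. Lama1 (chr17:67697259-67822647, plus strand) encodes α1, the chain of the first basement membranes of the embryo. It lay at 3.31, 3.10 and 0.620 CPM in Vcam1ctrl libraries, at 0.195, 0.031 and 0.032 CPM in Vcam1KO1 libraries and at 1.52, 1.89 and 2.14 CPM in Vcam1KO2 libraries. Vcam1KO1 stood below both other groups, while Vcam1KO2 overlapped the control, so that the combined log2 fold change of -1.27 had an SE of 1.18 (adjusted p = 0.41, edgeR quasi-likelihood test). The average of the clones' own contrasts was -2.57 with an adjusted p of 0.00373 in edgeR. Lama3, which encodes α3, the α chain of laminin-332, lay at 0.781, 1.03 and 1.54 CPM in Vcam1ctrl libraries, at 1.33, 0.939 and 1.26 CPM in Vcam1KO1 libraries and at 0.685, 0.509 and 0.562 CPM in Vcam1KO2 libraries. It had a combined log2 fold change of -0.34 (SE 0.40, adjusted p = 0.516, edgeR quasi-likelihood test), and Vcam1KO2 alone stood below all control libraries.

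Among the β chains, Lamb3 fell further on the log2 scale than the other laminin chain genes in the combined comparison. It encodes β3, the β chain of laminin-332, and lies at chr1:193207699-193343878 on the plus strand. The Vcam1ctrl libraries held 255, 271 and 279 CPM. The Vcam1KO1 libraries held 0.644, 0.428 and 0.990 CPM and the Vcam1KO2 libraries 2.02, 2.45 and 4.38 CPM. The 3 groups did not overlap. The log2 fold change was -7.21 in Vcam1KO cells (SE 0.68, adjusted p = 3.71e-05, edgeR quasi-likelihood test, Benjamini-Hochberg), or 148-fold lower, with -8.64 in Vcam1KO1 and -6.51 in Vcam1KO2 cells. Lama3, the gene of the α chain of laminin-332, was scarce already in control, at a mean of 0.106 CPM per kb of transcript beside 55.2 for Lamb3. It stood at 0.112 in Vcam1KO1 and 0.0555 CPM per kb in Vcam1KO2 cells. The fall of Lamb3 therefore does not show that laminin-332 itself was lost.

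Lamb1 (chr12:31265234-31329644, plus strand), the β chain of laminin-111, laminin-211, laminin-411 and laminin-511, rose in both clones. It stood at 211, 163 and 239 CPM in Vcam1ctrl libraries, at 690, 768 and 812 CPM in Vcam1KO1 libraries and at 873, 859 and 677 CPM in Vcam1KO2 libraries. The clones lay in the same range, well above control. Lamb1 was 3.82-fold higher in Vcam1KO cells (log2 fold change 1.93, SE 0.17, adjusted p = 2.48e-05, edgeR quasi-likelihood test, Benjamini-Hochberg). Lamb2 (chr9:108479736-108490530, plus strand), the β chain of laminin-221 and laminin-521 known from synapses and the kidney filter, moved little. Its levels were 126, 128 and 145 CPM in Vcam1ctrl libraries, 118, 136 and 175 CPM in Vcam1KO1 libraries and 104, 97.1 and 98.0 CPM in Vcam1KO2 libraries. The combined log2 fold change was -0.13 (SE 0.20, adjusted p = 0.614, edgeR quasi-likelihood test), and the Vcam1KO2 libraries lay just below the control.

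Lamc1 (chr1:153218922-153332786, minus strand) encodes γ1, the γ chain of most laminins and the chain that nidogen binds. It rose by a small but even amount, from 391, 418 and 411 CPM in Vcam1ctrl libraries to 567, 600 and 731 CPM in Vcam1KO1 and 621, 623 and 549 CPM in Vcam1KO2 libraries. All clone libraries were above all control libraries, and the increase was 1.51-fold (log2 fold change 0.60, SE 0.13, adjusted p = 0.00416, edgeR quasi-likelihood test, Benjamini-Hochberg). Lamc3, the γ3 chain, stayed at or below 0.488 CPM in all 9 libraries and did not pass in the combined comparison (log2 fold change 0.73, adjusted p = 0.622, edgeR quasi-likelihood test).

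Read clone by clone against the same 3 control libraries, Lama2, Lama4, Lamb1 and Lamc1 rose in both clones and Lama5 and Lamb3 fell in both. In Vcam1KO1 cells 4 of 9 members were called higher and 3 lower, where 59.9% of all genes passed in either direction, 29.9% upwards and 30.0% downwards. The same 4 and 3 did not overlap with control, as was so for 32.9% of all genes upwards and 33.1% downwards. Beside Lama5 and Lamb3, the member that fell there was Lama1 (log2 fold change -4.79, SE 0.82, adjusted p = 7.39e-04, edgeR quasi-likelihood test, Benjamini-Hochberg). Lama5 stood at -1.69 in Vcam1KO1 cells (adjusted p = 0.0272 in edgeR), a call that was lost without replicate 1 or 3 of Vcam1ctrl or without replicate 1 or 2 of Vcam1KO1, with adjusted p between 0.0533 and 0.0816. In Vcam1KO2 cells 4 of 9 were called higher and 4 lower, where 51.4% of all genes passed, 25.3% upwards and 26.1% downwards. Again the same members did not overlap with control, as was so for 30.7% of all genes upwards and 31.4% downwards. In this clone Lama5 stood at a log2 fold change of -2.98 (SE 0.60, adjusted p = 0.00238, edgeR quasi-likelihood test). Lama3 (-0.93, adjusted p = 0.0361 in edgeR) and Lamb2 (-0.42, adjusted p = 0.0352 in edgeR) also fell in Vcam1KO2 cells, and both calls were lost without replicate 3 of Vcam1ctrl or without any 1 of the Vcam1KO2 libraries, that of Lamb2 also without replicate 1 of Vcam1ctrl. With limma-voom, the test the study used, Lama3 had an adjusted p of 0.0572 in Vcam1KO2 cells.

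The clones were then set against each other, which does not use the control libraries as the reference. Lama3 and Lamb2 were higher in Vcam1KO1 than in Vcam1KO2 cells, and Lama1, Lama4 and Lamb3 were lower, so that 5 of 9 members differed, where 38.7% of all genes did, 20.2% upwards and 18.5% downwards. These 5 did not overlap between the clones, as was so for 28.7% of all genes upwards and 26.2% downwards. The widest difference was in Lama1, at a log2 difference of -4.46 (SE 0.81, adjusted p = 0.00259, edgeR quasi-likelihood test, Benjamini-Hochberg). Lamb3 followed at -2.13 (SE 0.34, adjusted p = 0.00134 in edgeR), on levels that were near 0 in both clones beside control. The other differences were smaller, with Lama3 at 1.01 (SE 0.32, adjusted p = 0.035 in edgeR), Lama4 at -0.76 (SE 0.24, adjusted p = 0.033) and Lamb2 at 0.52 (SE 0.14, adjusted p = 0.0184). The calls for Lama3 and Lama4 were lost without replicate 3 of Vcam1KO1, that in Lama3 also without replicate 1 of it, and these and Lamb2 were lost without any 1 of the Vcam1KO2 libraries. No difference was called for Lama2 (0.20, SE 0.37), Lamb1 (-0.09, SE 0.17), Lamc1 (0.08, SE 0.13) or Lama5 (1.28, SE 0.56, adjusted p = 0.0999 in edgeR). Lamc3, outside the 9, was lower in Vcam1KO1 than in Vcam1KO2 cells at -3.82 (adjusted p = 0.00389 in edgeR), on 5 counts in the 3 Vcam1KO1 libraries.

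**Figure D2:**
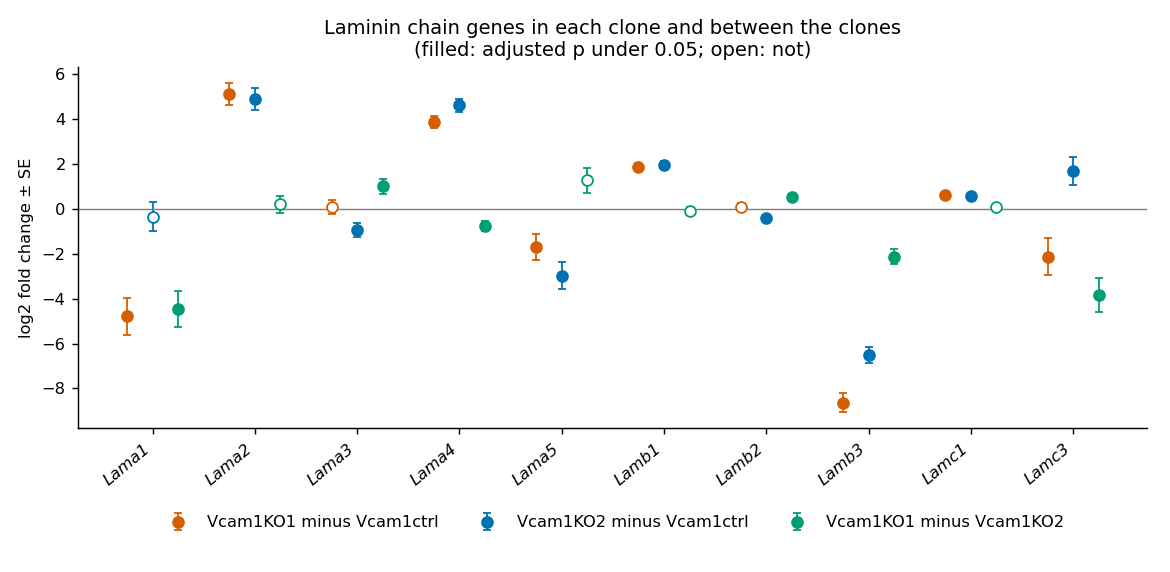
Log2 fold change with its SE for each of 10 laminin chain genes, for each clone against control and for Vcam1KO1 against Vcam1KO2. Filled points passed an adjusted p of 0.05 and open points did not. Lama2, Lama4, Lamb1 and Lamc1 lie above 0 and Lama5 and Lamb3 below 0 in both clones, whereas Lama1 lies at -4.79 in Vcam1KO1 and at -0.34 in Vcam1KO2.

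To compare levels between genes, CPM was divided by the length of the longest annotated transcript in kb, from 4.87 kb for Lamb3 to 11.39 kb for Lama5. In control cells the order of levels in CPM per kb was Lama5 (106 ± 38.4, SD, n = 3), Lamb3 (55.2 ± 2.60), Lamc1 (53.3 ± 1.85), Lamb1 (35.3 ± 6.63) and Lamb2 (23.6 ± 1.85). Lamb3 and Lamc1 overlapped, and the other neighbours in this order did not. Lama4 followed at 2.76 ± 0.780, and Lama1, Lama3 and Lama2 were each at or below 0.348 CPM per kb in every control library. In Vcam1KO1 cells the order began with Lamb1 (131 ± 10.6) and Lamc1 (83.0 ± 11.4), followed by Lama4 (40.2 ± 10.8), Lama5 (32.8 ± 29.7) and Lamb2 (25.4 ± 5.17), where Lama4 overlapped Lama5 and Lama5 overlapped Lamb2. In Vcam1KO2 cells it was Lamb1 (139 ± 18.9), Lamc1 (78.4 ± 5.52), Lama4 (68.2 ± 2.94), Lamb2 (17.7 ± 0.638) and Lama5 (13.5 ± 3.94), with no overlap between neighbours. Lamb3, next to the top in control, was at 0.141 and 0.606 CPM per kb in the clones.

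The make-up of the α and β chains followed from these levels and is given as a description. Of the summed α chain level per length, Lama5 made up 96.4, 95.4 and 98.5% in Vcam1ctrl libraries, 23.4, 26.8 and 70.5% in Vcam1KO1 libraries and 19.1, 17.5 and 12.1% in Vcam1KO2 libraries. Nearly all of the rest was Lama4, at a mean of 2.84% in control, 59.4% in Vcam1KO1 and 83.3% in Vcam1KO2 cells. Replicate 3 of Vcam1KO1 was the clone library in which Lama5 remained the main α chain. Of the β chains, Lamb3 made up 48.5 ± 3.32% (SD, n = 3) in control cells, 0.0895 ± 0.0315% in Vcam1KO1 and 0.404 ± 0.228% in Vcam1KO2 cells, while Lamb1 went from 30.8% to 83.8% and 88.2% and Lamb2 from 20.7% to 16.1% and 11.4%. The summed β chain level lay between 107 and 124 CPM per kb in control and between 135 and 172 CPM per kb in the clones, whereas the summed α chain level ranged from 71.5 to 147 in control and from 61.0 to 95.2 CPM per kb in the clones.

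**Figure D3:**
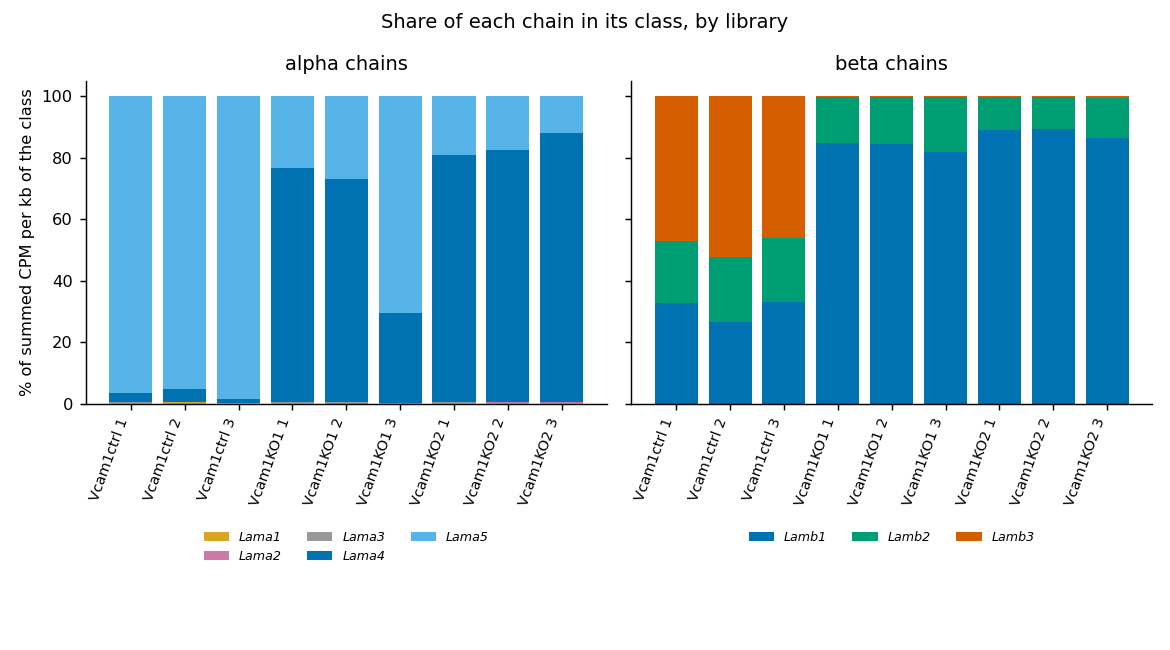
Share of each chain in the summed CPM per kb of its class, in percent, with 1 bar per library and 1 panel each for the α and β chains. Lama5 fills between 95.4 and 98.5% of the α bars in control and between 12.1 and 70.5% in the clones, the highest in replicate 3 of Vcam1KO1. Lamb3 is seen in the control bars and lies at or below 0.665% in the clones.

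Read as trimers, each laminin can be described by its scarcest chain mRNA, which says nothing of assembly or of protein. For laminin-411 that chain was Lama4 in all 9 libraries, at 2.76 ± 0.780 in control, 40.2 ± 10.8 in Vcam1KO1 and 68.2 ± 2.94 CPM per kb in Vcam1KO2 cells. Laminin-421 changed its scarcest chain from Lama4 in control, at 2.76, to Lamb2 in Vcam1KO2 cells, at 17.7 ± 0.638 CPM per kb, and stood at 24.3 ± 3.39 in Vcam1KO1 cells.

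For laminin-511 the scarcest chain was Lamb1 in control, at 35.3 ± 6.63 CPM per kb, and Lama5 in the clones, at 32.8 ± 29.7 in Vcam1KO1 and 13.5 ± 3.94 in Vcam1KO2 cells. The Vcam1KO1 value was spread from 14.3 to 67.1, so that it lay on both sides of control. Laminin-521 was set by Lamb2 in control (23.6 ± 1.85) and by Lama5 in Vcam1KO2 cells (13.5 ± 3.94), with 20.8 ± 9.03 CPM per kb in Vcam1KO1 cells. Trimers with α1 or α2, and those that join α3 to γ1, were set by their α chain in all libraries, at or below 0.348 CPM per kb.

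**Figure D4:**
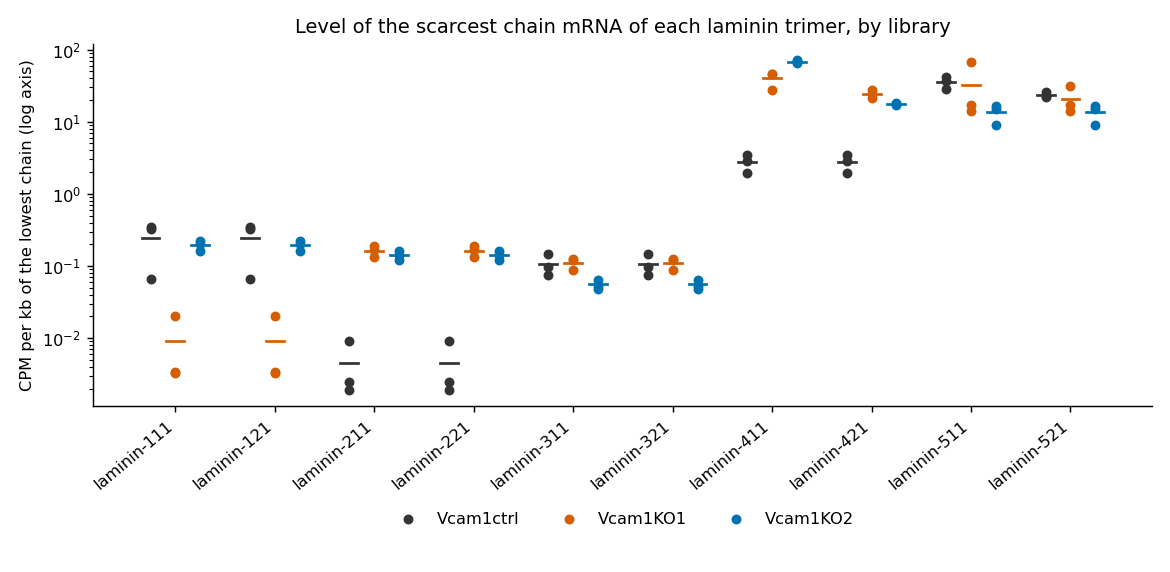
Level of the scarcest chain of 10 laminin trimers in each library, in CPM per kb on a log axis, with means of 3 libraries as short lines. Laminin-411 and laminin-421 lie at or below 3.46 CPM per kb in control and at or above 17.3 CPM per kb in the clones, while the Vcam1KO1 points of laminin-511 spread over the control points.

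Over the 9 libraries, the gene outside the laminins whose log2 CPM followed each chain most closely was sought among 10871 genes with a mean of at least 5 CPM. It was Ikbip for Lama4 (Pearson r = 0.998), Plekhh2 for Lamb1 (0.998), Fam83a for Lamb3 (0.997), Trappc6a for Lama5 (0.991), Sphk1 for Lamc1 (0.990), Stxbp3 for Lama1 (0.982) and Sec24a for Lamb2 (0.968). The points share 3 conditions that stand apart, so that these values describe likeness between conditions as well as between libraries. For Lamb1 518 genes exceeded an r of 0.95, and for Lamb2 8 genes did.

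Of 8 laminin receptor genes 4 were lower and 1 was higher in Vcam1KO cells, where 21.2% of all genes were lower and 21.7% higher, with a median log2 fold change of -1.67. The integrin β4 gene Itgb4, whose product pairs with α6 in hemidesmosomes and binds laminin-332, fell from 697, 486 and 1128 CPM in Vcam1ctrl libraries to 2.41, 1.81 and 3.0 CPM in Vcam1KO1 and 6.97, 8.12 and 6.15 CPM in Vcam1KO2 libraries. No clone library came near the control, and the log2 fold change was -7.34 (SE 0.55, adjusted p = 1.0e-05, edgeR quasi-likelihood test, Benjamini-Hochberg). Bcam, a receptor specific for the α5 chain, fell from a mean of 200 CPM to 0.378 CPM, a log2 fold change of -9.01 (SE 0.50, adjusted p = 2.1e-06 in edgeR). Itga6, the α6 integrin, stood at 295, 301 and 325 CPM in control, at 27.3, 23.1 and 28.4 CPM in Vcam1KO1 and at 150, 152 and 152 CPM in Vcam1KO2 libraries. It was lower in each clone (-3.55 and -1.02, adjusted p = 5.9e-08 and 4.4e-05 in edgeR), and the clones differed by -2.53 (adjusted p = 1.2e-06), while the combined log2 fold change of -1.79 had an adjusted p of 0.052.

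Itgb1, the β1 integrin subunit shared by most laminin receptors, stood between 476 and 662 CPM in all 9 libraries, with a log2 fold change of 0.06 (SE 0.13). The Itgb1 level alone does not show that the receptors it forms were kept. Itga3, the α3 integrin gene, fell from a mean of 1912 to 270 CPM in Vcam1KO cells (log2 fold change -2.82, adjusted p = 6.96e-05, edgeR quasi-likelihood test). Itga3 was also lower in Vcam1KO1 than in Vcam1KO2 cells (-0.81, adjusted p = 0.0207 in edgeR). Dag1, which encodes dystroglycan, was the 1 receptor that rose, from 302, 206 and 300 CPM in control to 391, 398 and 678 CPM in Vcam1KO1 and 525, 504 and 338 CPM in Vcam1KO2 libraries (log2 fold change 0.81, SE 0.24, adjusted p = 0.0228, edgeR quasi-likelihood test). The clones also differed in Cd151, the tetraspanin that binds laminin-receptor integrins, which was lower in Vcam1KO1 than in Vcam1KO2 cells (-1.03, adjusted p = 0.00406 in edgeR). Dystroglycan binds laminin through sugars added by a chain of enzymes, and of 13 genes for these 3 were higher and 4 lower in Vcam1KO cells, beside 21.7% and 21.2% of all genes. Pomgnt2 (1.02) and B4gat1 (0.49) had the largest log2 increases (genes under a mean of 1 CPM set aside), and B3galnt2 (-0.998) the largest decrease. Of 6 hemidesmosome genes 3 were called and all 3 were lower, where 43.0% of all genes were called and 21.2% were called lower. These were Itgb4, Plec, the plectin gene (-1.04), and Dst (-0.52). The Dst levels of the clones overlapped those of control, and Dst was not called in Vcam1KO2 cells alone (-0.44, adjusted p = 0.0509 in edgeR). Col17a1, the gene of a hemidesmosome collagen, rose in Vcam1KO2 cells from a mean of 0.261 to 0.636 CPM (log2 fold change 1.27, adjusted p = 0.00584 in edgeR).

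The rest of the basement membrane was split. Of 13 network genes 6 were higher and 5 lower in Vcam1KO cells, where 21.7% of all genes were higher and 21.2% lower. The network genes had a median log2 fold change of 0.88, beside 0.07 over all genes. Nid1, whose product nidogen-1 links the γ1 chain of laminin to collagen IV, fell from 67.2, 58.6 and 84.6 CPM in control to 4.03, 5.53 and 3.83 CPM in Vcam1KO1 and 4.32, 3.34 and 1.80 CPM in Vcam1KO2 libraries. Its log2 fold change was -4.20 (SE 0.29, adjusted p = 6.5e-06, edgeR quasi-likelihood test, Benjamini-Hochberg), opposite in sign to that of Lamc1. Nid2, its relative, stood at 1.72, 2.01 and 2.25 CPM in control, at 4.36, 4.55 and 12.4 CPM in Vcam1KO1 and at 1.29, 1.36 and 0.222 CPM in Vcam1KO2 libraries. It was higher in Vcam1KO1 cells (1.83, adjusted p = 0.025 in edgeR) and the clones differed by 2.89 (adjusted p = 0.0065).

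Col4a6, a collagen IV chain, and Ntn4, a netrin that binds laminin γ1, had the largest log2 increases among network genes, at 4.18 and 2.32, with genes under a mean of 1 CPM set aside. Col15a1 (-7.40) and Col4a3 (-5.98) had the largest decreases. Hspg2, the gene of the proteoglycan perlecan, was higher in Vcam1KO1 than in Vcam1KO2 cells (0.86, adjusted p = 0.0048 in edgeR), as was Agrn, the gene of the laminin-binding agrin (1.25, adjusted p = 0.018). Agrn stood at 256, 255 and 542 CPM in Vcam1KO1 libraries, so that the library with the high Lama5 also held the most Agrn and Dag1 of that clone. The same library held the most Lamb1, Lamb2, Lamc1, Hspg2 and Nid2 of the clone and the least Lama4 and Cd151. This likeness to Lama5 is thus not particular to Agrn and Dag1.

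**Figure D5:**
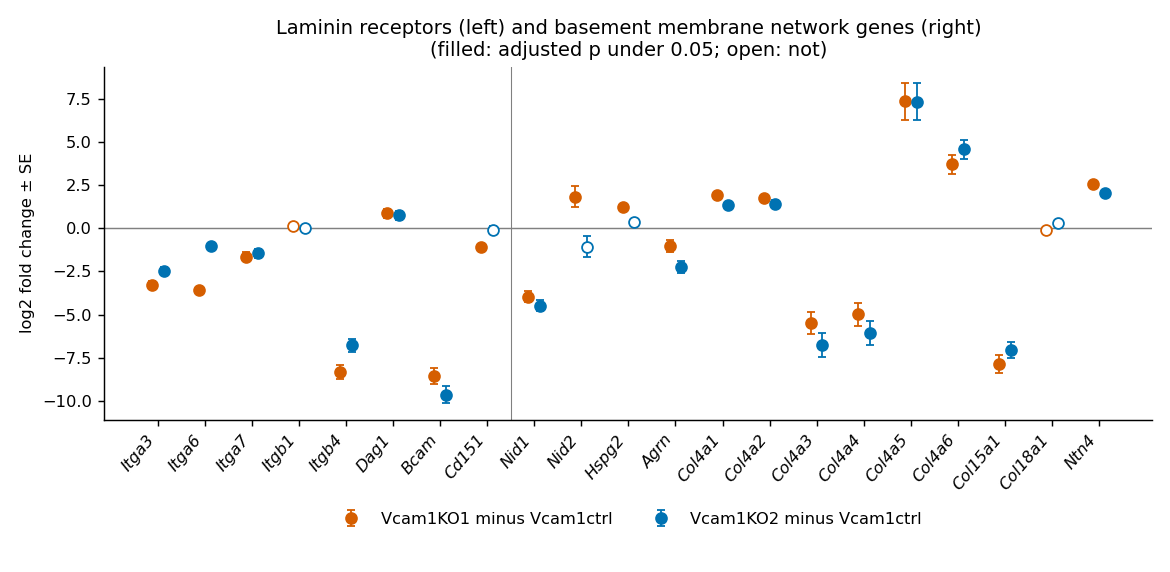
Log2 fold change with its SE in each clone against control for 8 laminin receptor genes (left of the line) and 13 basement membrane network genes (right). Filled points passed an adjusted p of 0.05. Itgb4 and Bcam lie at or below -6.76 and Nid1 at or below -3.97 in both clones, while Dag1 and Ntn4 lie above 0 in both.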

How the data were processed

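The mRNA of Vcam1ctrl, Vcam1KO1 and Vcam1KO2 cells was sequenced by the authors in stranded libraries. The authors pseudoaligned reads with kallisto 0.46.1 (per the submitters' processing notes and the paper) to GENCODE vM24 transcripts of mm10, and deposited estimated counts per gene symbol, not normalized. These held 0 non-whole values and were used as counts; 0 columns were left out. Groups came from the genotype label. The members and all gene lists were chosen with earlier results of these data known.

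Counts were scaled with TMM (factors between 0.959 and 1.033), filtered with filterByExpr and tested with the quasi-likelihood test of edgeR 4.0.16 (R 4.3.3), with Benjamini-Hochberg adjustment over 17672 genes and a threshold of 0.05. The 6 clone libraries were compared with 3 control libraries in a fit with 2 groups, and single clones in a fit with 3 groups over 9 libraries. The model was tested on simulated data. Precision was set by 3 libraries per condition; intervals and limits of detection cover counting error only. Lengths and positions came from GENCODE vM21 (GRCm38), another release than that of the counts. The named genes were the 9 members, Lamc3, Vcam1, the nidogens, Dag1, Itga6, Itgb1 and Itgb4, the 2 largest increases and decreases of each list among genes averaging 1 CPM or more, and list genes on which a difference between clones turned; 2 genes that this rule names are not reported here. Alternatives were DESeq2 1.42.0, limma-voom (limma 3.58.1), RLE and upper-quartile normalization, no low-count filter, a minimum mean of 1 CPM, each library left out, other sets of libraries in the fit, coding lengths and CPM without TMM factors. Figures were drawn with matplotlib 3.10.9.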

Additional observations from a re-analysis of the deposited data

Results flagged for a closer look

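Lama5 drew attention within the clones. Over the 6 Vcam1KO libraries the gap between the highest library, replicate 3 of Vcam1KO1, and its nearest neighbour made up 0.681 of the whole range of log2 CPM, above Dixon's 95% critical value for 6 samples, and it was the 1 member of 9 for which this was so. That library held 764 CPM of Lama5, and the others held between 102 and 194 CPM.

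In 5 of the 9 members the clones differed from each other by edgeR's quasi-likelihood test of the difference itself. The log2 difference of Vcam1KO1 minus Vcam1KO2 was -4.46 for Lama1, with a level of 0.0860 CPM in Vcam1KO1 and 1.85 CPM in Vcam1KO2 cells. It was -2.13 for Lamb3, -0.76 for Lama4, 1.01 for Lama3 and 0.52 for Lamb2. Each clone comes from a single cell, so that these are differences between 2 clones.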

How the results depend on the processing

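The log2 fold changes of 10 laminin chain genes were recomputed 627 times under the alternatives. Direction and call held in 572, a call was lost in 44 and gained in 3, and 8 changed sign. For Lama2, Lama4, Lamb1, Lamb3 and Lamc1 against control, all 237 held. The sign changes were in Lama3 of Vcam1KO1 against control (-0.15, -0.05 and -0.08 without Vcam1ctrl replicate 1, Vcam1ctrl replicate 2 or Vcam1KO1 replicate 1, over a range of -0.15 to 0.37), Lamb2 of Vcam1KO1 against control (-0.06 without Vcam1KO1 replicate 3, up to 0.17), Lama1 of Vcam1KO2 against control (0.00 without Vcam1ctrl replicate 1, down to -0.79), Lamc1 between clones (-0.03 and -0.01 without replicate 3 of Vcam1KO1 or of Vcam1KO2, up to 0.12) and Lamc3 in the average of the clones' contrasts (-0.22). None of these was called.

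Leaving out 1 library at a time, the number of members called lower was 1 to 2 in Vcam1KO, 2 to 3 in Vcam1KO1 and 2 to 4 in Vcam1KO2 cells, and 4 were called higher each time. Between clones, 0 to 2 were called higher and 2 to 3 lower in Vcam1KO1, and 1 was called higher with no filter or with a filter at a mean of 1 CPM. With coding length, control shares were 55.5% for Lamb3 and 26.7% for Lamb1. DESeq2 called Lama5 between clones (1.28, adjusted p = 0.0437). The causes were not tested.

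No paired analysis was possible because the labels give no replicate number or passage that the groups share. Precision was limited by 3 libraries per condition, by 2 clones of 1 cell each, and for Lama1 and Lamc3 in Vcam1KO1 and Lama2 in Vcam1ctrl cells by counts near the limit of detection.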
